A study of Mus musculus with 18 samples.

Results

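The genes described here are 4 receptors for fibroblast growth factors (Fgfr1, Fgfr2, Fgfr3 and Fgfr4), 3 ligands that can act as mammary oncogenes in mice (Fgf3, Fgf4 and Fgf8) and 3 further ligands (Fgf1, Fgf2 and Fgf10). They were chosen by symbol in the annotation of the array, and all 10 were measured, among 16887 genes in all. Each had exactly 1 array feature, so a value per gene is also a value per probe. The study profiled 18 primary mammary tumours of FVB mice, and the titles of all samples carry MMTV, the name of a virus whose promoter is used to drive transgenes in mammary epithelium. The groups were Wnt1_iFGFR1 (iFGFR1, 4 arrays), Wnt1_iFGFR2 (iFGFR2, 4 arrays), Wnt1_iR2 (iR2, 4 arrays) and Wnt1 (6 arrays), so that every tumour carried Wnt1, a secreted Wnt ligand. The labels do not expand iFGFR1, iFGFR2 or iR2, and iR2 was kept apart from iFGFR2. The sources used here do not give age, drug treatment, the number of founder lines or any pooling of animals. Each title carries a different number, but no label says that it stands for a separate animal. The p-values therefore measure only how these samples spread, and that spread may be technical.

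Fibroblast growth factors bind receptor tyrosine kinases together with heparan sulphate chains of the cell surface. Bound receptors pair, phosphorylate each other and, through adaptors such as FRS2 and GRB2, activate the RAS-ERK and PI3K routes, and ERK in turn induces ETS factors and feedback inhibitors. In the mouse mammary gland Fgf10 from the stroma and Fgfr2 in the epithelium are needed for early gland formation, and integrated mouse mammary tumour virus can switch on Fgf3, Fgf4 or Fgf8, which the adult gland hardly uses. Such insertions near Fgf3 and Fgf4 are known to cooperate with Wnt1 in mouse mammary tumours.

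Each value is a log2 ratio of tumour RNA (Cy5) to a whole-mouse total RNA pool (Cy3), so 0 means the level of the pool and a difference of 1 a doubling of the ratio. The table states neither base nor direction. The dyes in the labels gave the direction, and every fold below rests on reading the base as 2. Differences between groups were tested with limma in 1 fit of all 18 arrays, with Benjamini-Hochberg adjustment over 16887 genes and a threshold of 0.05 for the adjusted p. The mean of 11 luminal epithelial markers lay above the pool on every array (1.16 to 2.35), and the mean of 6 skeletal muscle markers lay far below it (-4.89 to -2.60). The median SD within a group over all genes was 0.376 in iFGFR1, 0.389 in iFGFR2, 0.174 in iR2 and 0.329 in Wnt1, so the iR2 arrays were the most alike. Wnt1 replicate 3 stood apart from the other Wnt1 arrays, with a luminal mean of 2.35 against 1.16 to 1.71 and a fibroblast mean of -0.85 against -1.92 to -1.65.

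Of the 10 genes, 5 differed among the 4 groups by limma's F test, against 19.6% of all genes tested. They were Fgfr1 (adjusted p = 0.000228), Fgf8 (0.0134), Fgf1 (0.0146), Fgf3 (0.0263) and Fgfr4 (0.0385). Against Wnt1, 2 of 10 passed in iFGFR1, both higher, where 15.4% of all genes passed in either direction and 8.38% were higher. In iFGFR2 1 of 10 passed, higher, beside 3.43% of all genes in either direction and 1.97% higher. In iR2 0 of 10 passed by limma, beside 7.1% of all genes. An unadjusted p under 0.05 was found there for 2 of 10, and for 3944 of all 16887 genes. The median difference of the 10 genes from Wnt1 was 0.03 in iFGFR1, -0.09 in iFGFR2 and 0.00 in iR2, and that of all genes 0.02, 0.01 and -0.05. These 3 comparisons share the same 6 Wnt1 arrays. The members called were thus few, and without Wnt1 replicate 3 the 3 calls against Wnt1 were kept (Fgfr1 in iFGFR1 at 1.38, adjusted p = 8.01e-05, Fgf8 in iFGFR1 at 0.69, adjusted p = 0.0463, Fgf3 in iFGFR2 at 1.47, adjusted p = 0.0324).

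Without regard to the test, arrays of 2 groups were fully apart for some members. In iFGFR1, 2 of 10 genes lay above every Wnt1 array on all 4 arrays (4.88% of all genes) and 1 of 10 below (4.61%). In iFGFR2, 3 of 10 lay above every Wnt1 array (2.5% of all genes), and in iR2 2 of 10 did (6.24%). Between the receptor groups, 1 of 10 lay lower on every array in iFGFR2 than in iFGFR1 (2.81% of all genes). In iR2, 1 of 10 lay above every iFGFR1 array (9.21%) and 4 of 10 below (13%), and 1 of 10 lay above every iFGFR2 array (4.35%) and 3 of 10 below (8.68%). Which genes these were is given with each gene.

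**Figure D1:**
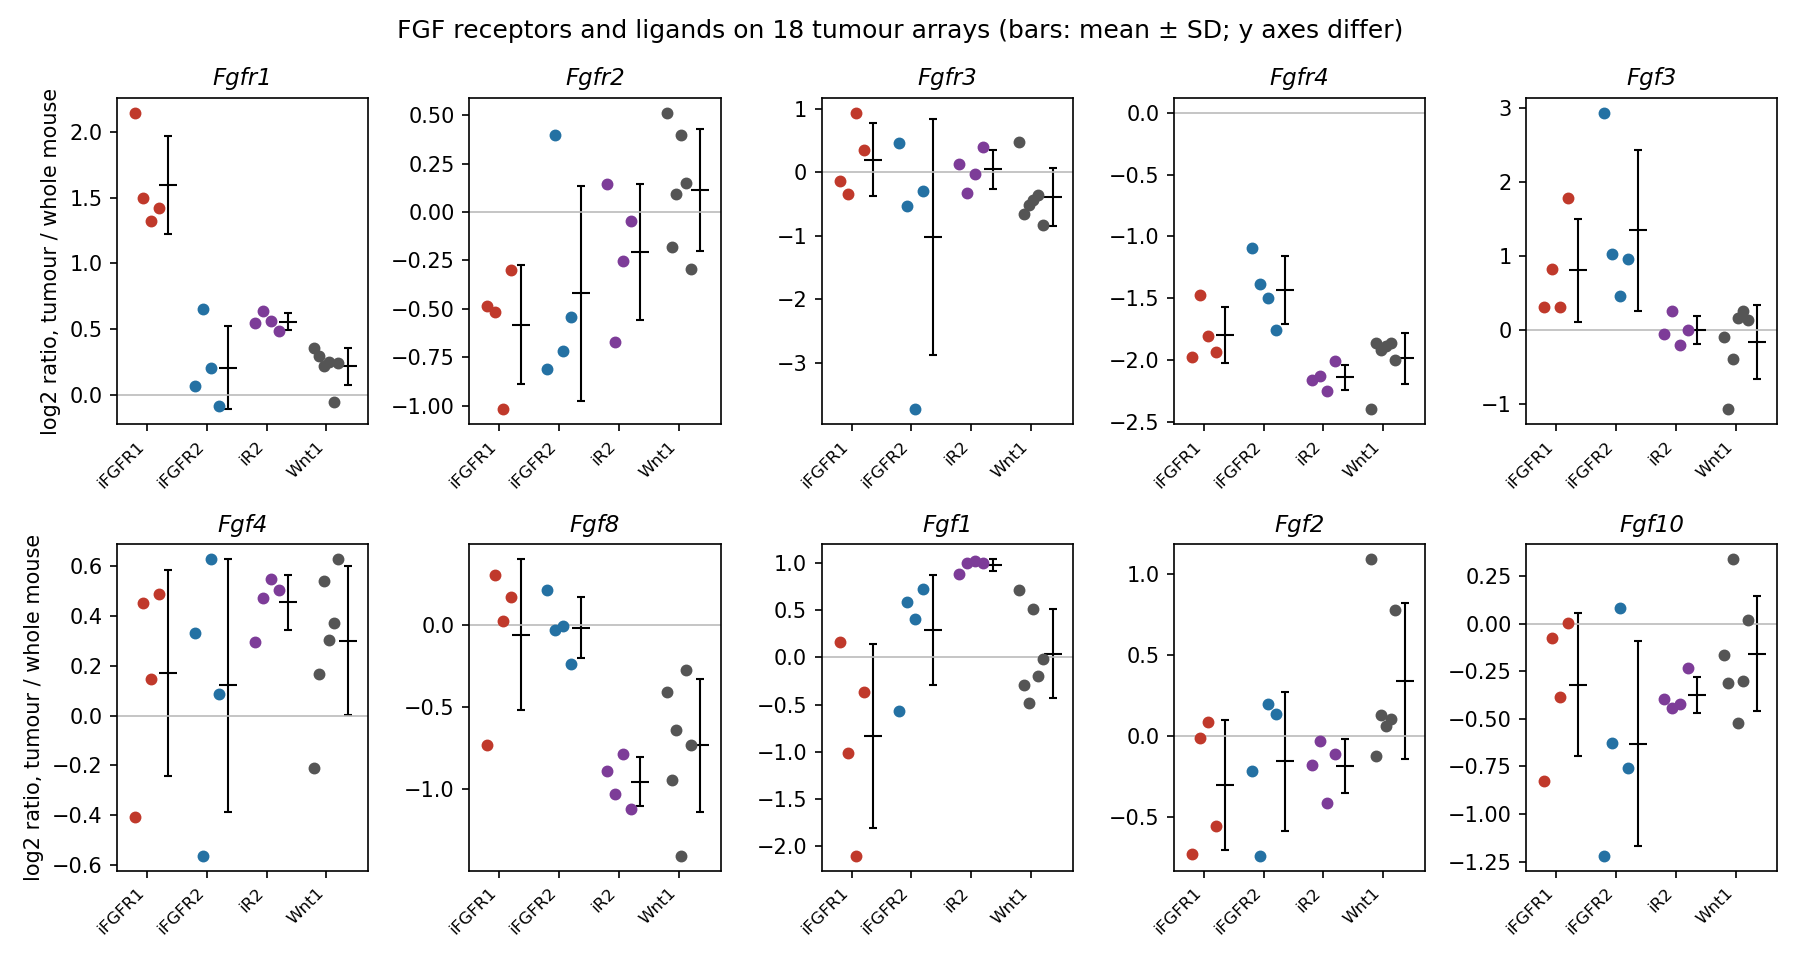
Log2 ratio of tumour RNA to whole-mouse RNA (y axis, a different range in each panel) for each of the 10 genes on each array, by group (x axis), with points for arrays and bars for the group mean ± SD. The 4 iFGFR1 points of Fgfr1 (1.32 to 2.14) lie above every other array, 1 iFGFR2 point of Fgfr3 lies at -3.73, and the iR2 points of Fgf1 lie close together (0.88 to 1.02).

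Fgfr1 is a receptor of mesenchyme and of mammary epithelium, and its gene is amplified in some human breast cancers. It was the member that moved furthest in iFGFR1. The log2 ratio was 2.14, 1.495, 1.32 and 1.42 on the iFGFR1 arrays. It was 0.06, 0.65, 0.20 and -0.09 on the iFGFR2 arrays, 0.55, 0.64, 0.56 and 0.48 on the iR2 arrays, and between -0.06 and 0.36 with a median of 0.25 on the Wnt1 arrays. Every iFGFR1 array lay above every array of the other groups, every iR2 array lay above every Wnt1 array, and the iFGFR2 arrays overlapped Wnt1 on both sides. Fgfr1 averaged 1.59 ± 0.37 in iFGFR1 and 0.22 ± 0.14 in Wnt1 (SD, n = 4 and 6), a difference of 1.38 (SE 0.18, 95% interval 0.998 to 1.76, 2.599-fold, adjusted p = 6.7e-05 by limma). It ranked 70th by p among all genes in that comparison. The order of the means was iFGFR1, iR2 (0.56 ± 0.06), Wnt1 and iFGFR2 (0.21 ± 0.32). The neighbours iR2 and Wnt1 differed by 0.34 (95% interval -0.04 to 0.72, adjusted p = 0.275), and iFGFR2 and Wnt1 by -0.01 (-0.39 to 0.37, adjusted p = 0.984), neither past the threshold, though with array weights the first passed (0.37, adjusted p = 0.0275). The position of the probe in relation to a transgene is unknown here, so the signal may come from a construct or from the mouse's own gene, which cannot be told apart. The call against Wnt1 was kept without any 1 of the 18 arrays (difference 1.20 to 1.47, highest adjusted p = 0.000336).

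Between the receptor groups, Fgfr1 was the 1 of 10 genes called in iFGFR2 against iFGFR1, where 2.13% of all genes passed and 0.924% were lower. It fell by 1.39 (SE 0.20, adjusted p = 0.00085, ranked 19th by p). In iR2 against iFGFR1 it fell by 1.04 (SE 0.20, adjusted p = 0.00238), as 1 of 3 genes called of 10, beside 11.7% of all genes (4.81% higher, 6.84% lower). When the number carried by each sample title was added as a covariate, the iR2 difference was -0.55 (adjusted p = 0.304). The iR2 titles carry the highest numbers of the series, without overlap with the others, so iR2 and title number cannot be cleanly separated. Fitted on the arrays of iFGFR2 and iFGFR1 alone, the call between these groups was lost (adjusted p = 0.054). In iR2 against iFGFR2, 0 of 10 genes passed by limma, while 1.34% of all genes passed. In that comparison 3 of 10 had an unadjusted p under 0.05, as did 2600 of all 16887 genes. Fgfr1 differed there by 0.35 (95% interval -0.07 to 0.77, adjusted p = 0.434).

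Fgfr2 encodes the main FGF receptor of mammary epithelium and the receptor for Fgf10. Its log2 ratio was -0.49, -0.52, -1.02 and -0.30 on the iFGFR1 arrays, -0.81, 0.40, -0.72 and -0.55 on the iFGFR2 arrays, 0.14, -0.67, -0.25 and -0.05 on the iR2 arrays, and -0.29 to 0.51 with a median of 0.12 on the Wnt1 arrays. All 4 iFGFR1 arrays lay below every Wnt1 array, as did 3 of 4 iFGFR2 arrays and 1 of 4 iR2 arrays. The differences from Wnt1 were -0.69 (95% interval -1.20 to -0.19, adjusted p = 0.0579) in iFGFR1, -0.53 (-1.04 to -0.03, adjusted p = 0.212) in iFGFR2 and -0.32 (-0.83 to 0.19, adjusted p = 0.466) in iR2, so none passed. The mean of iFGFR2, whose name contains that of this receptor, was thus not above that of Wnt1. As for Fgfr1, the probe's position in relation to a transgene is unknown here. The second iFGFR2 array was the exception in its group. Without it the difference from Wnt1 was -0.81 in iFGFR2 (adjusted p = 0.0324), and the iFGFR1 difference passed as well (adjusted p = 0.0262), as it did without iFGFR2 replicate 1 (0.0485).

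Fgfr3, the receptor best known for restraining bone growth, was the most variable member. Its log2 ratio was -0.14, -0.34, 0.94 and 0.35 on the iFGFR1 arrays, 0.46, -0.53, -3.73 and -0.29 on the iFGFR2 arrays, -0.33 to 0.40 on the iR2 arrays, and -0.83 to 0.48 with a median of -0.48 on the Wnt1 arrays. The groups overlapped, and a single iFGFR2 array lay far below all the others. The residual SD of Fgfr3, 0.950, was at the 98.7th percentile of all genes. The differences from Wnt1 were 0.59 in iFGFR1, -0.64 in iFGFR2 and 0.44 in iR2 (adjusted p = 0.489, 0.527 and 0.683), and without the low array that of iFGFR2 turned to 0.27 (adjusted p = 0.67). With array weights iR2 minus iFGFR2 passed (1.665, adjusted p = 0.0474).

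Fgfr4, which serves as a receptor for Fgf15 in mouse liver, was below the pool in all tumours (-2.40 to -1.10). It measured -1.98, -1.48, -1.81 and -1.94 on the iFGFR1 arrays, -1.10, -1.39, -1.50 and -1.76 on the iFGFR2 arrays, -2.16, -2.13, -2.26 and -2.01 on the iR2 arrays, and -2.40 to -1.86 with a median of -1.904 on the Wnt1 arrays. All iFGFR2 arrays lay above every Wnt1 and every iR2 array, and all iR2 arrays lay below every iFGFR1 array. Across the 4 groups the F test passed, but no pair of groups did. The difference from Wnt1 was 0.55 in iFGFR2 (SE 0.17, 95% interval 0.20 to 0.91, adjusted p = 0.0703), 0.19 in iFGFR1 and -0.15 in iR2, iR2 minus iFGFR1 was -0.34 (adjusted p = 0.256), and iR2 minus iFGFR2 was -0.70 (SE 0.19, adjusted p = 0.0619). Scaling each array to the same median absolute deviation brought the iFGFR2 difference to 0.71 (adjusted p = 0.0315) that of iR2 against iFGFR2 to -1.25 (0.000231), that of iR2 against iFGFR1 to -0.98 (0.000687) and that of iR2 against Wnt1 to -0.53 (0.0305). With array weights iR2 minus iFGFR2 was -0.63 (adjusted p = 0.0183).

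**Figure D2:**
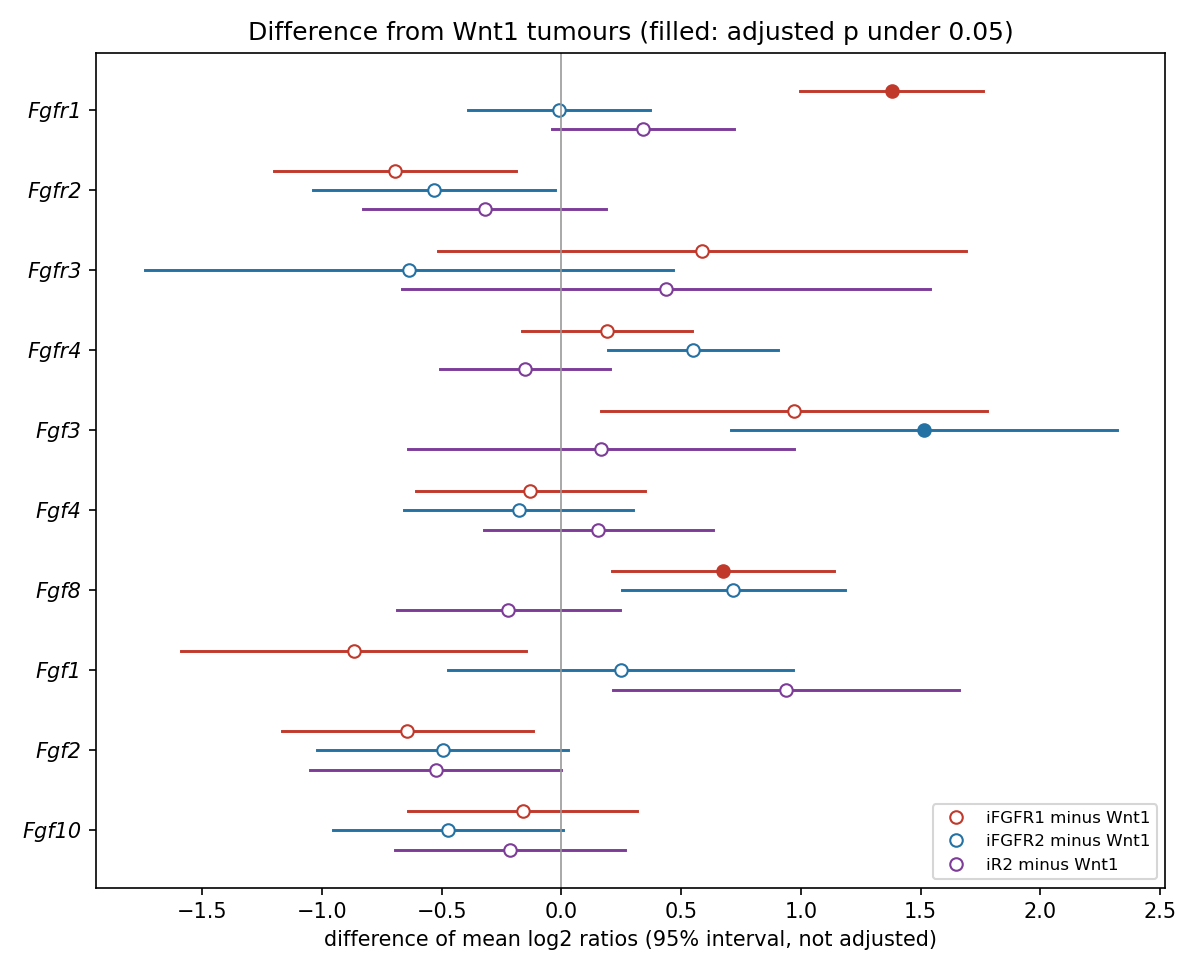
Difference of mean log2 ratios from Wnt1 (x axis) for the 10 genes (y axis) in iFGFR1, iFGFR2 and iR2, as points with 95% intervals that are not adjusted for multiple testing; filled points passed at an adjusted p under 0.05. Fgfr1 and Fgf8 in iFGFR1 and Fgf3 in iFGFR2 are filled, and the intervals of Fgfr3 are the widest.

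Fgf3 and Fgf4 lie side by side on mouse chromosome 7, between Ano1 and Fgf15, in the region where tumour virus insertions are found. Fgf3 was the only member called in iFGFR2 against Wnt1, while Fgf4 passed in no comparison, and the stretches around their start sites are shown to let this neighbouring pair be compared. They come from RefSeq (GRCm38.p6), each with 250 bases before the start and 50 after it, on the plus strand, Fgf3 at chr7:144838362-144838661 and Fgf4 at chr7:144861136-144861435. Capitals mark the 2 longest unbroken runs of C and T in Fgf3, of 26 bases each, and the 2 GC boxes (GGGCGG) in Fgf4.
Fgf3: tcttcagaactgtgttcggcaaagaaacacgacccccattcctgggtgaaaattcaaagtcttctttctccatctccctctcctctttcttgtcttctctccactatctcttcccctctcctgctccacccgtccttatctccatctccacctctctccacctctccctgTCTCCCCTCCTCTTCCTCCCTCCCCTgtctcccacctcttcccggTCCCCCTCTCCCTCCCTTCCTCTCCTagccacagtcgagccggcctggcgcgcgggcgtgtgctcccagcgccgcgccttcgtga
Fgf4: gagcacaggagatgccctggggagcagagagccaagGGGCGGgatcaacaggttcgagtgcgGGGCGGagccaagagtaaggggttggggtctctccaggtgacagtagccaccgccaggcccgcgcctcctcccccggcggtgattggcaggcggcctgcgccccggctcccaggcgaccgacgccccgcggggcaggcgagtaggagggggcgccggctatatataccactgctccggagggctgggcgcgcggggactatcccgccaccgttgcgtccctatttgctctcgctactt
The Fgf3 stretch was 75.0% C or T, against a median of 49.7% over 32851 mouse promoters of the same length. At least as much was found in 35 of them (0.106%), and a run of at least 26 bases was found in 386 (1.18%). The 2 runs of Fgf3 lay from -80 to -55 and from -35 to -10 relative to the start. The C and T share and the runs were singled out in the Fgf3 sequence. They are not given for Fgf4, so they do not compare the pair. For comparison 4 short motifs were searched on both strands. The TATA box TATAAA occurs in 13.6% of all promoters and the GC box GGGCGG in 35.7%. The ETS core CCGGAAG occurs in 8.86% and the TCF/LEF core CTTTGAT in 3.73%. Fgf3 held none of these exact strings in this window and Fgf4 only the 2 GC boxes, at -214 and -188. Variant forms of the TATA box were not searched, so the tatatata in the Fgf4 stretch was not counted. The search of members covered 7 of the 10 genes, after those on a chromosome set aside beforehand were left out. These are descriptions of the sequence and say nothing about which factors bind.

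Fgf3 encodes a secreted growth factor of the embryo. Its log2 ratio was 0.30, 0.82, 0.30 and 1.78 on the iFGFR1 arrays, 2.93, 1.03, 0.46 and 0.96 on the iFGFR2 arrays, -0.06, 0.26, -0.21 and -0.01 on the iR2 arrays, and -1.08 to 0.26 with a median of 0.02 on the Wnt1 arrays. Every iFGFR1 array and every iFGFR2 array lay above every Wnt1 and every iR2 array, while iR2 and Wnt1 overlapped. Fgf3 averaged 1.34 ± 1.09 in iFGFR2 and -0.17 ± 0.50 in Wnt1, a difference of 1.51 (SE 0.39, 95% interval 0.71 to 2.32, 2.85-fold, adjusted p = 0.0375). In iFGFR1 it averaged 0.80 ± 0.70, and the difference of 0.97 (0.17 to 1.78, adjusted p = 0.0948) did not pass. In iR2 the mean was 0.00 ± 0.19, with a difference of 0.16 (adjusted p = 0.858) from Wnt1 and of -1.35 (SE 0.42, adjusted p = 0.118) from iFGFR2. The spread within groups was wide, with a residual SD of 0.676 at the 93.8th percentile. The call in iFGFR2 was kept without 10 of the 18 arrays in turn. It was lost without Wnt1 replicate 1, 2, 4, 5 or 6, iFGFR2 replicate 1 or 4, or iR2 replicate 1 (0.98 to 1.64, adjusted p = 0.0508 to 0.148). The value moved most without the highest array, iFGFR2 replicate 1 (0.98, adjusted p = 0.148). With array weights the difference was 1.02 (adjusted p = 0.0715). That of iR2 from iFGFR2 passed with scaling (-1.17, adjusted p = 0.034) and with array weights (-1.01, 0.0462).

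Fgf4, a growth factor of the early embryo, measured -0.41, 0.45, 0.14 and 0.49 on the iFGFR1 arrays, 0.33, -0.56, 0.63 and 0.09 on the iFGFR2 arrays, 0.30, 0.47, 0.55 and 0.50 on the iR2 arrays, and -0.21 to 0.63 with a median of 0.34 on the Wnt1 arrays. All groups overlapped. The differences from Wnt1 were -0.13 in iFGFR1 (95% interval -0.61 to 0.35), -0.18 in iFGFR2 (-0.66 to 0.30) and 0.15 in iR2 (-0.32 to 0.63). Of the 7 measured genes of 8 listed around Fgf3 and Fgf4, Cttn, an actin-binding protein, rose by 0.79 in iFGFR1 (SE 0.23, adjusted p = 0.0253) and by 1.16 in iR2 (adjusted p = 0.00733). LTO1 fell by 0.91 in iFGFR1 (adjusted p = 0.00221) and by 0.66 in iFGFR2 (adjusted p = 0.0466). The others did not pass, among them Ccnd1, the cyclin D1 gene, at -0.71, -0.57 and -0.60 in iFGFR1, iFGFR2 and iR2 (adjusted p = 0.059, 0.187 and 0.145).

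Fgf8, a ligand of embryonic patterning that is also a mouse mammary oncogene, had its lowest group mean in iR2 and its highest in iFGFR2 and iFGFR1. The log2 ratio was -0.73, 0.30, 0.02 and 0.17 on the iFGFR1 arrays, 0.21, -0.04, -0.01 and -0.24 on the iFGFR2 arrays, -0.89, -1.03, -0.79 and -1.12 on the iR2 arrays, and -1.41 to -0.28 with a median of -0.69 on the Wnt1 arrays. Every iR2 array lay below every array of iFGFR1 and iFGFR2, and every iFGFR2 array and 3 of 4 iFGFR1 arrays lay above every Wnt1 array. The mean was -0.06 ± 0.46 in iFGFR1, -0.02 ± 0.18 in iFGFR2, -0.96 ± 0.15 in iR2 and -0.74 ± 0.40 in Wnt1. Against Wnt1 it rose in iFGFR1 by 0.67 (SE 0.22, 1.60-fold, adjusted p = 0.0457). The difference in iFGFR2 was 0.72 (SE 0.22, adjusted p = 0.0715) and that in iR2 -0.22 (adjusted p = 0.609). The mean differences of iFGFR1 and iFGFR2 from Wnt1 were close in size, and only the first was past the threshold. In iR2 against iFGFR1 it fell by 0.90 (SE 0.24, adjusted p = 0.0214), and iR2 minus iFGFR2 was -0.94 (SE 0.24, adjusted p = 0.0600). The call in iFGFR1 against Wnt1 was close to the threshold. It was kept without 6 of the 18 arrays in turn and lost without the other 12 (adjusted p = 0.0502 to 0.119). These 12 were Wnt1 replicates 2, 4 and 6, iFGFR1 replicates 2, 3 and 4, iFGFR2 replicates 3 and 4, and each iR2 array. Over all 18 omissions, kept or lost, the difference was 0.54 to 0.90. The fall in iR2 against iFGFR1 was lost without iFGFR1 replicate 2, 3 or 4 or iR2 replicate 2 or 4 (-0.87 to -0.77, highest adjusted p = 0.0646), and with the title number as a covariate (-1.29, adjusted p = 0.0715). The difference of iR2 from iFGFR2 passed with scaling (-1.13, adjusted p = 0.00382), array weights (-0.86, 0.0259) or the arrays of these groups alone (-0.94, 0.0274).

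Fgf1 binds all 4 receptors and lacks a signal for classical secretion. It was the 1 gene of 10 that rose in iR2 against iFGFR1. The log2 ratio was 0.16, -1.01, -2.10 and -0.36 on the iFGFR1 arrays, -0.56, 0.58, 0.40 and 0.72 on the iFGFR2 arrays, 0.88, 0.99, 1.02 and 1.001 on the iR2 arrays, and -0.48 to 0.71 with a median of -0.11 on the Wnt1 arrays. Every iR2 array lay above every array of the other 3 groups. Fgf1 averaged 0.98 ± 0.06 in iR2 and -0.83 ± 0.97 in iFGFR1, a difference of 1.80 (SE 0.38, 95% interval 1.01 to 2.595, 3.49-fold, adjusted p = 0.00435). That call was kept without any 1 array (1.38 to 2.13). The order of the means was iR2, iFGFR2 (0.29 ± 0.58), Wnt1 (0.04 ± 0.47) and iFGFR1. Its neighbours did not differ past the threshold: iR2 minus iFGFR2 was 0.69 (adjusted p = 0.409), iFGFR2 minus Wnt1 was 0.25 (0.731), and iFGFR1 minus Wnt1 was -0.87 (0.0959). The difference of iR2 from Wnt1, 0.94 (95% interval 0.22 to 1.66, adjusted p = 0.104), did not pass, but did when arrays were weighted (0.86, adjusted p = 0.00602), scaled (1.16, 0.0169) or limited to the 2 groups (0.94, 0.0176). Without iFGFR1 replicate 1 that of iFGFR1 passed (-1.20, adjusted p = 0.0314), as it did with array weights (-1.14, 0.0285).

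**Figure D3:**
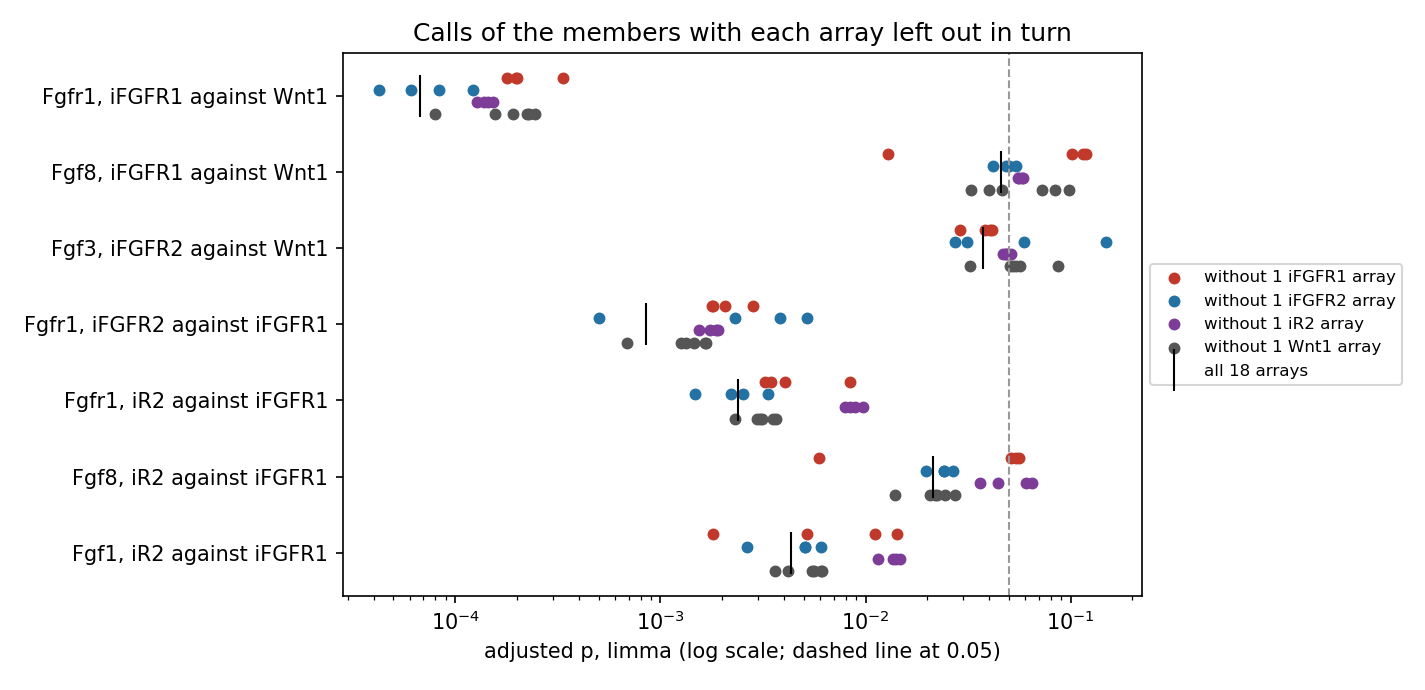
Adjusted p by limma (x axis, log scale, dashed line at 0.05) for the 7 calls among the 10 genes (y axis) when each array was left out in turn, coloured by the group of the array left out; the vertical mark is the value with all 18 arrays. All Fgfr1 and Fgf1 points lie left of the line, while Fgf8 in iFGFR1 and Fgf3 in iFGFR2, both against Wnt1, cross it. Fgf8 in iR2 against iFGFR1 crosses the line too.

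Fgf2 and Fgf10, ligands that fibroblasts make in many tissues, passed in no comparison in the fit of all 18 arrays without covariates or array weights. Fgf2 measured -0.73, -0.02, 0.08 and -0.56 on the iFGFR1 arrays, -0.22, -0.74, 0.19 and 0.13 on the iFGFR2 arrays, -0.18, -0.04, -0.42 and -0.11 on the iR2 arrays, and -0.13 to 1.09 with a median of 0.11 on the Wnt1 arrays. Its differences from Wnt1 were -0.64 in iFGFR1 (95% interval -1.17 to -0.12, adjusted p = 0.0886), -0.50 in iFGFR2 (adjusted p = 0.269) and -0.53 in iR2 (adjusted p = 0.213). With the title number as a covariate that of Fgf2 in iFGFR1 passed (-0.97, adjusted p = 0.0281), and with array weights that of iR2 did (-0.51, 0.0317). Those of Fgf10 were -0.16, -0.47 and -0.22 (adjusted p = 0.680, 0.246 and 0.632), over arrays that ran from -1.22 to 0.34. The mean log2 ratio of 12 fibroblast markers ran from -3.26 to -2.46 in iFGFR1 and -2.70 to -2.09 in iFGFR2. It ran from -2.27 to -2.07 in iR2 and -1.92 to -0.85 in Wnt1. Of the 12, 8 fell in iFGFR1, 2 in iFGFR2 and 2 in iR2, and none rose. Among all genes, 15.4%, 3.43% and 7.1% passed in these comparisons with Wnt1, in either direction. Pdgfra, a growth factor receptor found on mesenchyme, fell by 2.61 in iFGFR1. The mean of 8 basal markers was -1.25 ± 0.15 in iFGFR1, -0.49 ± 0.27 in iFGFR2, -0.54 ± 0.24 in iR2 and -0.51 ± 0.36 in Wnt1. Of these 8, 4 fell and 1 rose in iFGFR1, and 1 rose in iR2. In iFGFR2 0 passed by limma, and 4 had an unadjusted p under 0.05, as did 3524 of all 16887 genes. The marker that rose was Acta2, by 0.92 in iFGFR1 and by 1.28 in iR2. In whole tumours fewer cells of a type and less RNA per cell cannot be told apart, and the part of either list in the values of the 10 genes was not tested.

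Of 16 other FGF ligands, all measured, 0 passed in any comparison with Wnt1 by limma. At an unadjusted p under 0.05 there were 2 in iFGFR1, 2 in iFGFR2 and 1 in iR2, beside 5039, 3524 and 3944 of all 16887 genes. The median difference of the 16 ligands was 0.07 in iFGFR1, 0.02 in iFGFR2 and -0.18 in iR2. Of 22 co-receptors and FGF-binding genes measured of 24 listed, 2 rose and 6 fell in iFGFR1, and 1 rose in iFGFR2. In iR2 0 passed by limma (3 at an unadjusted p under 0.05). Of all genes, 15.4% passed in iFGFR1, 3.43% in iFGFR2 and 7.1% in iR2, in either direction. Flrt3, a membrane partner of FGF receptors, rose by 1.43 in iFGFR1 (SE 0.26, adjusted p = 0.00123) and by 1.05 in iFGFR2 (adjusted p = 0.0335). Sdc4, a heparan sulphate proteoglycan, rose by 1.06 in iFGFR1, where Sulf1, a sulphatase that trims heparan sulphate, fell by 1.48 (SE 0.27, adjusted p = 0.00115) and the glypican gene Gpc6 fell by 1.03.

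Of 18 adaptors and kinases measured of 24 listed, 1 rose in iFGFR1, the adaptor Grb2 by 0.88 (SE 0.22, adjusted p = 0.0117). In iFGFR2 0 passed by limma, and 4 had an unadjusted p under 0.05, as did 3524 of all 16887 genes. In iR2, 2 rose: the docking protein gene Gab1 by 1.11 (SE 0.20, adjusted p = 0.00367) and Pik3ca, a catalytic subunit of PI3K, by 0.85 (adjusted p = 0.0236). Of 18 feedback and target genes measured of 20 listed, 5 rose and 1 fell in iFGFR1, 1 fell in iFGFR2 and 3 rose in iR2. The shares of all genes that passed in either direction were 15.4%, 3.43% and 7.1% in the same order. Ier3, Etv1, Dusp4 and Dusp6 were highest in rank in iFGFR1. Ier3, an early response gene, rose by 1.76 (SE 0.23), the ETS factor gene Etv1 by 2.04 (SE 0.33), and the ERK phosphatase genes Dusp4 and Dusp6 by 0.92 and 1.06. Phlda1 rose by 1.39 and the early response gene Egr1 fell by 1.17, both named after their values were seen. In iFGFR2 Egr1 fell by 1.45 (SE 0.39, adjusted p = 0.0439). In iR2 Phlda1 rose by 1.63 (SE 0.41, adjusted p = 0.0214), Dusp4 by 0.77 and Myc by 0.63.

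**Figure D4:**
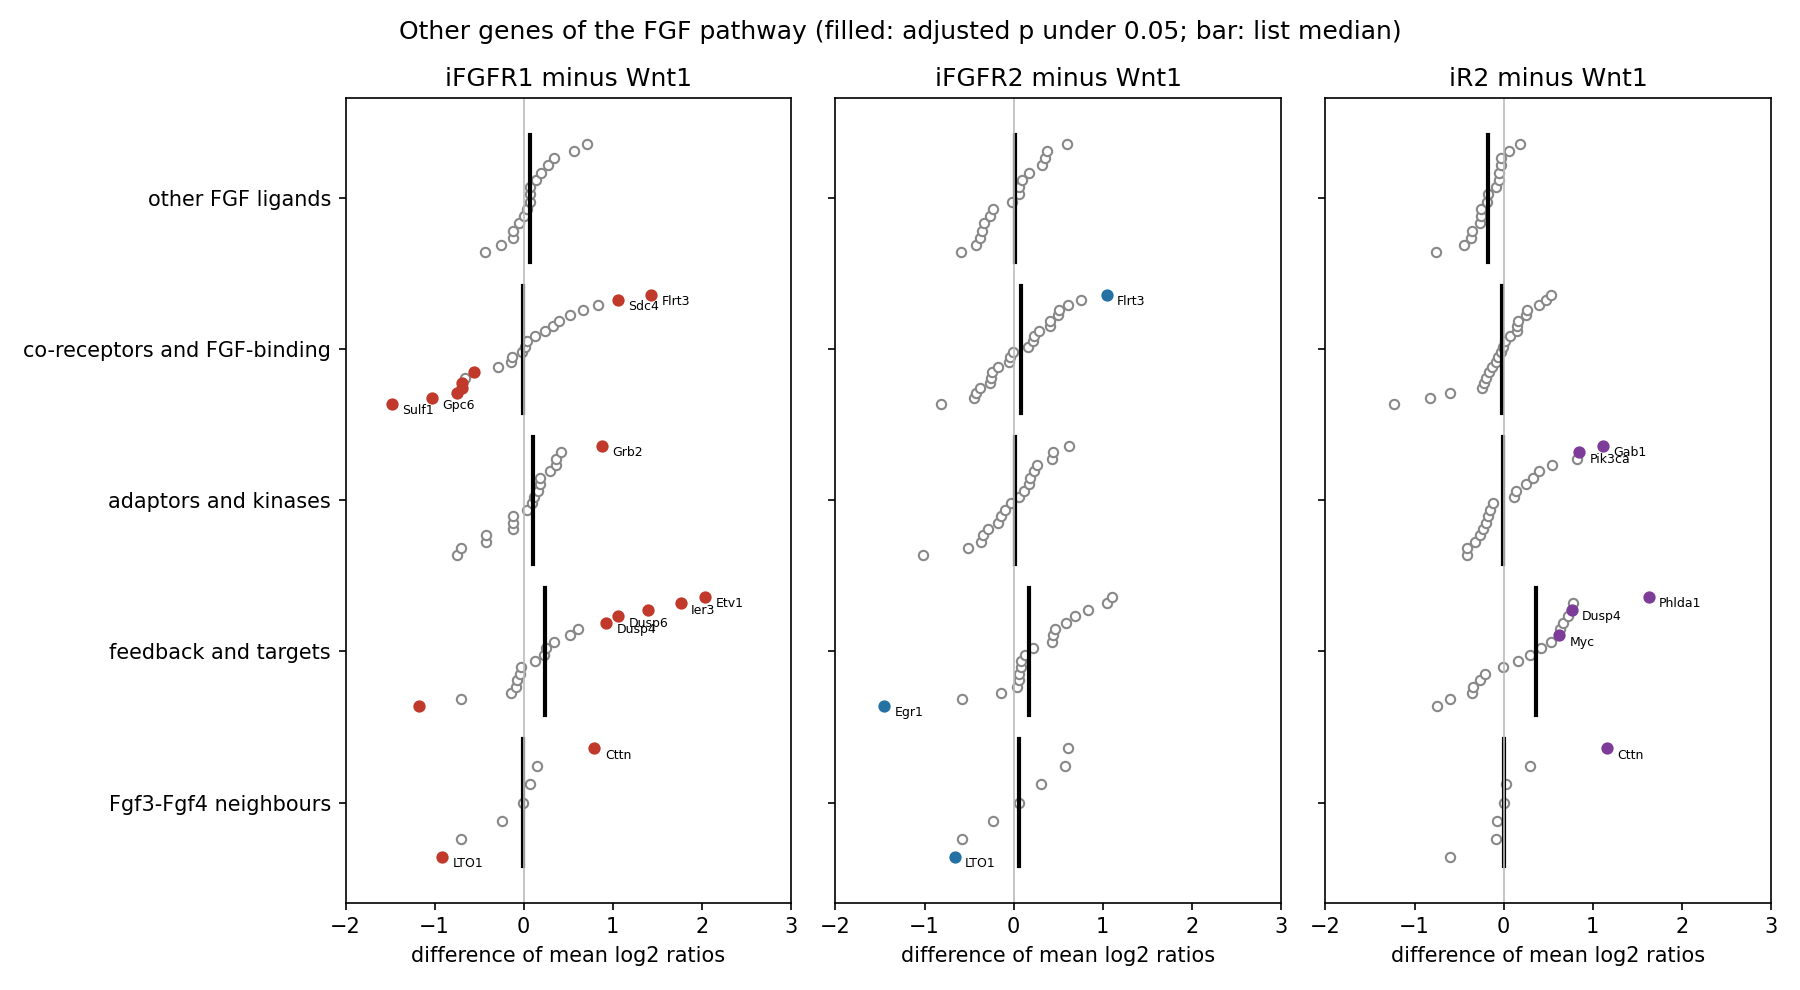
Difference of mean log2 ratios from Wnt1 (x axis) for each measured gene of 5 lists around the FGF pathway (y axis, sorted by size within a list) in iFGFR1, iFGFR2 and iR2; filled points passed at an adjusted p under 0.05, up to 4 of them per list are named, and the bar is the list median. The feedback list holds the largest rise, Etv1 at 2.04 in iFGFR1, and no other FGF ligand is filled.

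The genes whose profiles over the 18 arrays lay nearest to a member were found by the root mean square difference between profiles, each centred on its own mean. For Fgfr1, whose own profile had a root mean square of 0.59, they were Stard5 (0.26), Hk1 (0.30) and Nlgn1 (0.31). For Fgf3 (0.86) they were Mip (0.50), Spa17 (0.51) and Bcan (0.53), and for Fgf1 (0.80) Tbc1d12 (0.43), Rftn2 (0.49) and Edaradd (0.51). For Fgf8 (0.50) they were Crygn (0.28), Mogat2 (0.28) and Foxp2 (0.30), and for Fgfr4 (0.31) Brinp2 (0.20), Olfr711 (0.21) and Lmf2 (0.21).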

How the data were processed

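Tumour RNA was extracted with a Qiagen RNeasy kit and the reference with TRIZOL, per the labels. The authors deposited 1 table of log ratios, read here as log2 and as tumour over reference from the dyes, for 22575 features without empty cells. Column medians were -0.023 to 0.009. The sources used here do not give scanner, background correction or normalization, and with no intensities the number of arrays limits the precision. The platform annotation gave 18658 features 1 symbol and 30 several, and left 3887 unnamed. Features of 1 gene were averaged (16887 genes). Groups came from the source label, and replicates were numbered in accession order. limma 3.58.1 in R 4.3.3 fitted all 18 arrays in 4 groups with no covariates (lmFit, eBayes). The script was tested on simulated data. Named were all 10 members, up to 4 passing genes per pathway list by smallest p, and 3 nearest profiles for each member that passed the F test. The members and lists were chosen with earlier results of these data known. No 2 arrays were identical (highest correlation over features 0.932). Alternatives covered centring, quantile normalization, scaling, array weights, a robust trended prior, single features, a variance filter, the arrays fitted, the title number and each array left out.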

Additional observations from a re-analysis of the deposited data

Results flagged for a closer look

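In 3 of the 40 sets of group values that were examined (10 genes in 4 groups), 1 array lay further from its group than Dixon's 95% limit allows. Chance gives about 1 such set in 20. For Fgfr1, Wnt1 replicate 5 was lowest at -0.056, with the nearest Wnt1 array at 0.218. For Fgfr3, Wnt1 replicate 1 was highest at 0.477, with the nearest at -0.357. For Fgfr4, Wnt1 replicate 1 was lowest at -2.402, with the nearest at -1.998. The low Fgfr3 value of iFGFR2 replicate 3 (-3.73) is not among these.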

How the results depend on the processing

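The difference of Fgfr1 in iFGFR1 from Wnt1 (1.22 to 1.64) and that of Fgf1 in iR2 from iFGFR1 passed under all 10 alternatives. Fgf3 in iFGFR2 passed in 7 of 10 (not with array weights, with only the compared arrays, adjusted p = 0.0859, or with the title number, 0.0667), and Fgf8 in iFGFR1 in 5 of 10 (highest adjusted p = 0.258, with the title number). No paired analysis was possible because the labels give no pairing of the arrays. The number of members called moved as follows. Scaling gave 2 in iFGFR2 and 2 in iR2 against Wnt1 and 3 in iR2 against iFGFR2. Array weights gave 0, 3 and 4 for the same comparisons. For iFGFR1 against Wnt1 it was 1 with every feature on its own, with the variance filter (which kept 7 of 10 members) and with only the compared arrays. With only the compared arrays it was 0 in iFGFR2 and 1 in iR2 against Wnt1, 0 in iFGFR2 against iFGFR1 and 1 in iR2 against iFGFR2. With the title number it was 0 in iFGFR2 against Wnt1 and 1 in iR2 against iFGFR1. Leaving out single arrays gave 1 to 4 members in iFGFR1 and 0 to 2 in iFGFR2 against Wnt1, and 0 to 1 in iR2 against iFGFR2. Of all genes, scaling called 3398 in iR2 against Wnt1, 164 in iFGFR2 and 3645 in iR2 against iFGFR1, and 2051 in iR2 against iFGFR2. Array weights called 5207 in iR2 against Wnt1, 202 in iFGFR2 against iFGFR1, 1138 in iR2 against iFGFR2 and 6319 by the F test. The compared arrays alone gave 143 in iFGFR2 and 2317 in iR2 against Wnt1 and 71 in iFGFR2 against iFGFR1. The title number gave 52 in iR2 against Wnt1, 265 against iFGFR1 and 2 against iFGFR2, and quantile normalization 19 in iR2 against iFGFR2. Because iR2 and title number cannot be cleanly separated, the title number counts do not show which of them matters. Without single arrays the counts were 99 (without iFGFR2 replicate 1) to 1470 (without iFGFR2 replicate 2) in iFGFR2 and 303 to 1883 in iR2 against Wnt1, 183 to 530 in iFGFR2 and 1172 to 2338 in iR2 against iFGFR1, and 19 to 326 in iR2 against iFGFR2.

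Signs turned only for differences that passed in neither setting. In iFGFR2 against Wnt1 Fgfr1 turned to 0.0031 with centring and 0.20 with the title number, and in iR2 against Wnt1 Fgfr4 turned to 0.0811 under quantile normalization. Array weights gave 0.056 for Fgf4 and -0.0091 for Fgf8 in iFGFR2 against iFGFR1. With the title number, iR2 minus Wnt1 was 0.29 for Fgfr2 and -0.91 for Fgf4, iFGFR2 minus iFGFR1 was 0.0286 for Fgf4, iR2 minus iFGFR1 was 0.58 for Fgfr3, -0.41 for Fgf4 and -0.48 for Fgf2, and iR2 minus iFGFR2 was -0.44 for Fgf4 and -0.37 for Fgf10. Leaving out single arrays, iFGFR1 minus Wnt1 ran from -0.24 to 0.062 for Fgf4 and -0.27 to 0.0055 for Fgf10. For iFGFR2 minus Wnt1 it ran from -0.16 to 0.0887 for Fgfr1, -1.13 to 0.27 for Fgfr3 and -0.35 to 0.049 for Fgf4, and for iR2 minus Wnt1 from -0.0187 to 0.25 for Fgf3. For iFGFR2 minus iFGFR1 it ran from -0.11 to 0.29 for Fgfr2, -0.24 to 0.18 for Fgf4 and -0.18 to 0.16 for Fgf8. For iR2 minus iFGFR1 it ran from -0.33 to 0.0947 for Fgfr3, -0.0229 to 0.25 for Fgf2 and -0.22 to 0.0547 for Fgf10, and for iR2 minus iFGFR2 from -0.22 to 0.0874 for Fgf2. The cause of these changes was not tested.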

Other observations

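The iR2 arrays had the smallest SD of the 4 groups for 9 of the 10 genes, and for 68.2% of all genes tested. Fgfr2 was the exception, with an SD of 0.35 in iR2 and 0.31 in iFGFR1.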
